A study of Homo sapiens with 12 samples.

Results

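The 39 genes described here encode the alpha subunits of the hypoxia-inducible factors (HIF), genes that HIF is known to induce, and the proteins that carry glucose into the cell and convert it to lactate. They were listed by symbol and matched to Ensembl gene identifiers, and all 39 were found among 58051 gene identifiers in the count files. The list holds 2 HIF alpha subunits, 16 hypoxia targets outside glycolysis or controlling it, and 21 genes of glucose transport, glycolysis and lactate handling. The genes were measured by RNA sequencing of poly(A) RNA in 12 libraries, 2 biological replicates for each of 6 groups of cells of head and neck squamous carcinoma, HNSCC. FaDu is a line from a hypopharyngeal carcinoma and was grown in EMEM. Cal27 is a line from a tongue carcinoma and was grown in DMEM. In each line, parental cells were compared with AfaR cells, made resistant to afatinib, and ErlR cells, made resistant to erlotinib, by culture in rising drug doses. The labels call the genotype of all 12 samples WT and give them 1 batch date. Each resistant model is a single selected population whose 2 replicates do not sample separate selections. Resistant cells were kept off drug for a day before experiments.

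HIF is a transcription factor made of an oxygen-labile alpha subunit, HIF1A or EPAS1 (also called HIF2 alpha), and the stable partner ARNT. When oxygen is present, prolyl hydroxylases such as EGLN1 mark the alpha subunit for destruction by the VHL complex, so HIF activity is set largely at the level of the protein. Stabilized HIF binds short hypoxia response elements near its targets and induces glucose transporters, glycolytic enzymes, lactate export and the acid-handling enzyme CA9. EGFR signaling through PI3K and MYC is also known to drive glycolysis in squamous carcinoma cells. Afatinib binds EGFR and its relatives covalently through an acrylamide group that erlotinib lacks, and erlotinib binds EGFR reversibly. The 2 drugs were taken to different final doses, so tests of AfaR against ErlR cells below compare the models and not the compounds at matched doses.

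The core of the hypoxia response element reads ACGTG or GCGTG. These letters were searched on both strands of the RefSeq promoter windows (GRCh38.p14), which run from 250 bases before to 50 bases after the start site. Windows were matched for 36 members, and those of NDRG1, BNIP3L and SLC2A3 were not. At least 1 core lay in 27 of the 36 windows (75.0%), against 48.4% of all 35116 promoters in the table. ACGTG lay in 41.7% of the member windows and in 21.4% of all windows, GCGTG in 52.8% and 36.5%, and the E-box CACGTG, which overlaps ACGTG, in 13.9% and 7.26%. In the 150 bases nearest the start site, the share with a core was 41.7% for members and 31.8% for all promoters. Base composition was not matched between members and the other promoters. The 250 bases before the start site are shown for 5 genes whose levels the results turn on. Capitals mark the core on the plus or minus strand of the gene, so that CACGT and CACGC are cores read backwards.
CA9 promoter, chr9:35673678-35673927, plus strand: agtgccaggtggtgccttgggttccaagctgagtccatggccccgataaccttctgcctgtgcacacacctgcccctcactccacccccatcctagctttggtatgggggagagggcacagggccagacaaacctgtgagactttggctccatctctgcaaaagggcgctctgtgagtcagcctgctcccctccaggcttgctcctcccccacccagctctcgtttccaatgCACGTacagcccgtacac
ALDOC promoter, chr17:28576896-28577145, minus strand: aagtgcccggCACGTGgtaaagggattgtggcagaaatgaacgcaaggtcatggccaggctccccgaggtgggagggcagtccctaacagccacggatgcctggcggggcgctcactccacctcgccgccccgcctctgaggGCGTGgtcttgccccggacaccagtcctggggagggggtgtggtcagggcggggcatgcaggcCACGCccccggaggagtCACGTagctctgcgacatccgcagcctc
DDIT4 promoter, chr10:72273674-72273923, plus strand: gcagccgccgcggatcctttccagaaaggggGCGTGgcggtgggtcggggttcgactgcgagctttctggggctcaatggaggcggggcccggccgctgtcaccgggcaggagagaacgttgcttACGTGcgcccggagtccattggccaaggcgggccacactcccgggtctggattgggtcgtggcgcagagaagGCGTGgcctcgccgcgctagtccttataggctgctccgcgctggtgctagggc
HK2 promoter, chr2:74833877-74834126, plus strand: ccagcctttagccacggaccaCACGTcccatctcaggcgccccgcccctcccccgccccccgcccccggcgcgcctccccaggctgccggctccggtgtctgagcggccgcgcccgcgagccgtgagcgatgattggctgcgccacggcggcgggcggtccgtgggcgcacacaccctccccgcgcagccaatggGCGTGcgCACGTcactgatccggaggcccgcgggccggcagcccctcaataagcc
EGLN3 promoter, chr14:33951075-33951324, minus strand: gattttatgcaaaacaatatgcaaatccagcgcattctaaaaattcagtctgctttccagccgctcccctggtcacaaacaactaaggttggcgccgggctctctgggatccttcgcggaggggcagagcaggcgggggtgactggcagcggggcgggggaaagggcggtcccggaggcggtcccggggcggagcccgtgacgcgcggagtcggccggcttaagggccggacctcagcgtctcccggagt
The ALDOC stretch holds 5 cores, 2 of them the palindrome CACGTG read on each strand. DDIT4 and HK2 hold 3 each and CA9 holds 1. EGLN3 holds 0 in this window, as does PDK1, and a missing match says nothing of elements elsewhere in these genes.

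The libraries held 16334937 to 23399259 counts on genes, of which 0.969% to 2.32% were mitochondrial. Spike-in RNA made up 5.64% to 5.82% of all counts in the FaDu parental and AfaR libraries and 3.86% to 4.6% in the other libraries. The FaDu parental and AfaR libraries also held the most counts on genes, 20156109 or more, against 16689855 or fewer in the others. Replicates of a group differed by more than sampling noise in all 6 groups, with an estimated biological variation (BCV) of 14.5% for FaDu and 15.3% for Cal27. Squamous markers were present in all groups, with KRT5 at 307 CPM or more in every library. The 5 leukocyte markers summed to 4.04 to 6.79 CPM over the libraries, and CD3E among them was listed at 0 in all libraries but 1. The squamous markers were lower in Cal27 AfaR, where all 8 summed to 874 to 966 CPM, against 3897 to 4975 in Cal27 parental and 4736 to 4819 in Cal27 ErlR cells. The 7 fibroblast markers summed to 279.7 to 289 CPM in Cal27 AfaR against 30.3 to 42.0 in parental cells, most of it COL1A1, while DCN and PDGFRA stayed at or under 0.12 CPM there. In Cal27 ErlR the fibroblast markers summed to 5.38 to 10.3 CPM, and the 4 endothelial markers, of which CDH5 made up most in parental cells, to 2.59 to 6.13 against 31.9 to 32.9 in parental and 29.9 to 36.9 in AfaR cells, with VWF and KDR at or under 0.533 CPM in all 3 groups. The part of these markers in the Cal27 results below was not tested. Levels below are CPM, counts scaled to a common library size, after TMM normalization. Differences, given in parentheses, are log2 fold changes from edgeR's quasi-likelihood test with their standard error (SE), and a gene passed at a Benjamini-Hochberg adjusted p under 0.05 over all genes tested. In such bulk libraries, fewer cells of a type and less RNA per cell cannot be told apart.

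The first question was whether the genes of the HIF alpha subunits differed. HIF1A fell in Cal27 ErlR cells and EPAS1 rose in FaDu AfaR cells, and neither gene passed in the other resistant models. HIF1A (ENSG00000100644, chr14:61695513-61748259, plus strand) stood at 195 and 217 CPM in FaDu parental, 199 and 225 in FaDu AfaR and 184 and 203 in FaDu ErlR cells. The FaDu groups overlapped. In Cal27 it stood at 617 and 840.2 CPM in Cal27 parental, 605 and 546 in Cal27 AfaR and 295 and 347 in Cal27 ErlR cells. Both ErlR libraries lay below all other Cal27 libraries (-1.20, SE 0.18, adjusted p = 0.00163), and the AfaR libraries lay just under the parental ones without passing (-0.31, SE 0.18, adjusted p = 0.189). EPAS1 (ENSG00000116016, chr2:46293667-46386703, plus strand) stood at 36.6 and 44.4 CPM in FaDu parental, 87.4 and 111 in FaDu AfaR and 64.5 and 53.8 in FaDu ErlR cells. Both FaDu AfaR libraries lay above all other FaDu libraries (1.27, SE 0.16, adjusted p = 0.00275), and the call was kept when any of the FaDu parental or AfaR libraries was left out. FaDu ErlR lay between, at 0.56, adjusted p = 0.0804. In Cal27, EPAS1 stood at 86.5 and 114 CPM in Cal27 parental, 129 and 111 in Cal27 AfaR and 134 and 110.4 in Cal27 ErlR cells, with overlapping groups. Per kb of exon, HIF1A was the higher of the 2 subunits in every group, at 40.0 against 5.55 CPM per kb in FaDu parental cells and 141 against 13.8 in Cal27 parental cells.

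The main question was which hypoxia and glycolysis genes differed between each resistant model and the parental cells of its line. In Cal27 ErlR, 13 of 39 members fell (33.3%, where 15.3% of all genes tested fell) and 0 rose (12.3% of all genes). They included the prolyl hydroxylase EGLN3, the carbonic anhydrase CA9, the aldolase ALDOC and HIF1A itself. In Cal27 AfaR, 14 of 39 fell (35.9%, where 18.2% of all genes fell) and 5 rose (12.8%, where 19.5% of all genes rose), led by falls of CA9, the hexokinase HK2, the mTOR inhibitor DDIT4 and the pyruvate dehydrogenase kinase PDK1. Fewer members passed in FaDu, where 38 were tested, since CA9 was too low. In FaDu AfaR 5 rose and 4 fell (13.2% and 10.5%), close to the 10.4% and 7.49% of all genes. In FaDu ErlR 1 rose and 2 fell (2.63% and 5.26%), where 2.58% and 1.6% of all genes did.

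A change of more than 2-fold was passed by 10 members in Cal27 ErlR, where 13.5% of all genes passed it, and by 10 in Cal27 AfaR, where 19.6% did. It was passed by 3 members in FaDu AfaR (7.43% of all genes) and 1 in FaDu ErlR (2.05%). The median log2 fold change of the members was -0.28 in Cal27 ErlR, where that of all genes was -0.03. In Cal27 AfaR it was -0.25 and in the FaDu models 0.04 and -0.03, with all-gene medians within 0.01 of 0. The 0 members higher in Cal27 ErlR by edgeR became 1 with DESeq2, and 17 members had an unadjusted p under 0.05 there in either direction. Both resistant models of a line were compared with the same 2 parental libraries, so their changes are not independent of each other.

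**Figure D1:**
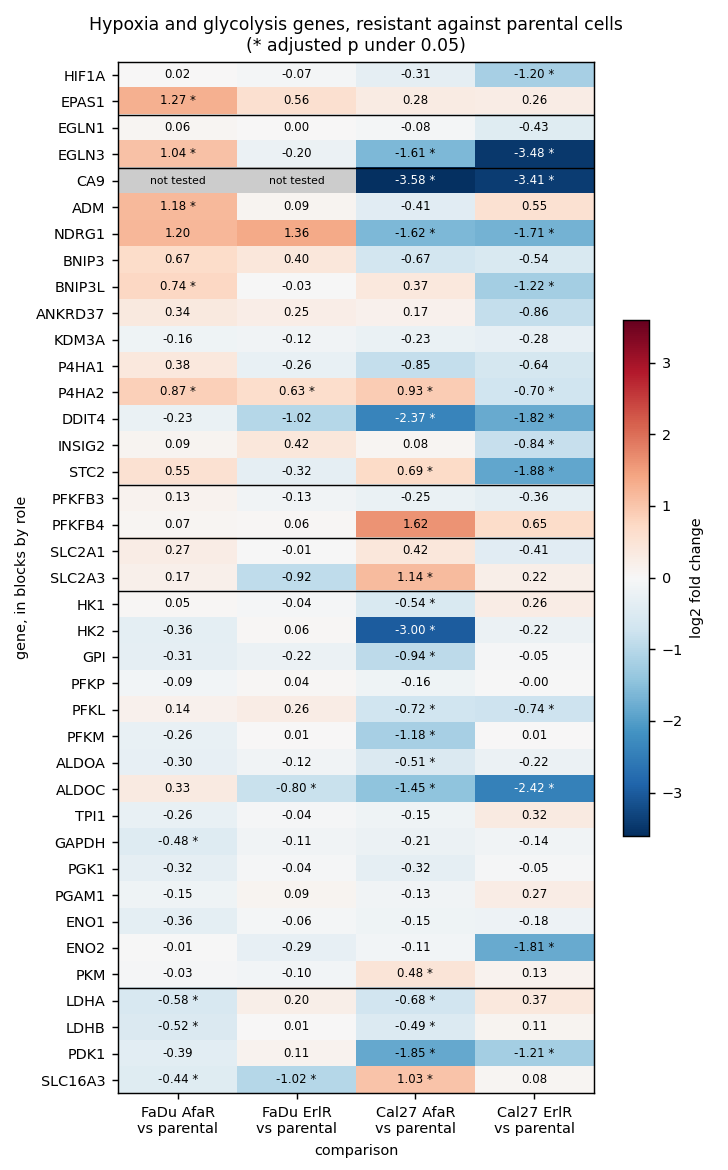
Log2 fold change of each of the 39 genes (rows, in blocks by role) in the 4 comparisons of resistant with parental cells (columns), with an asterisk at an adjusted p under 0.05 and grey where a gene was not tested. The blue cells gather in the Cal27 columns, down to -3.58 for CA9, and the FaDu columns stay between -1.02 and 1.36.

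Among the hypoxia targets of Cal27, 4 genes fell in both resistant models, namely CA9, EGLN3, NDRG1 and DDIT4. CA9 (ENSG00000107159, chr9:35673856-35681159, plus strand) is the membrane enzyme that hydrates carbon dioxide outside the cell and is often used as a marker of hypoxia. It stood at 19.8 and 58.5 CPM in Cal27 parental, 4.37 and 2.02 in Cal27 AfaR and 3.95 and 3.52 in Cal27 ErlR cells. All 4 resistant libraries lay below both parental libraries, with a log2 fold change of -3.58, SE 0.51, adjusted p = 0.000702 in AfaR and -3.41, SE 0.51, adjusted p = 0.00168 in ErlR. The parental libraries differed by more than 2-fold from each other, and without parental replicate 2 the changes were -2.60 and -2.41, both still passing. In FaDu it stood at 0.195 and 0.47 CPM in FaDu parental, 0.34 and 0.248 in FaDu AfaR and 0.253 and 0.192 in FaDu ErlR cells, which are 3 to 9 counts in each library, and a difference was not detectable at this depth.

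EGLN3 (ENSG00000129521, chr14:33924231-34462774, minus strand), a prolyl hydroxylase that HIF induces and that acts back on HIF, stood at 18.6 and 41.3 CPM in Cal27 parental, 10.2 and 9.00 in Cal27 AfaR and 2.33 and 3.10 in Cal27 ErlR cells. The ErlR libraries were lowest and the AfaR libraries lay between them and the parental ones, and no groups overlapped. The changes were -1.61, SE 0.34, adjusted p = 0.00508 in AfaR and -3.48, SE 0.38, adjusted p = 0.000412 in ErlR, and they were -0.92 and -2.77 without parental replicate 2. In FaDu, EGLN3 moved the other way in AfaR cells, from 12.6 and 13.5 CPM in parental to 24.9 and 29.4 in AfaR cells (1.04, SE 0.25, adjusted p = 0.0235), with 14.6 and 7.83 in ErlR cells. The other hydroxylase among the members, EGLN1, held levels of 39.1 to 64.3 CPM over all 12 libraries and passed in no resistant model. Another EGLN gene, EGLN2, is outside the members and is counted with the other regulators below. It rose in both Cal27 models (1.21, adjusted p = 0.0012 in AfaR and 0.64, adjusted p = 0.0353 in ErlR) and passed in neither FaDu model.

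DDIT4 (ENSG00000168209, chr10:72273920-72276036, plus strand), which restrains mTOR signaling under stress, stood at 546 and 358 CPM in Cal27 parental, 99.6 and 71.6 in Cal27 AfaR and 68.9 and 188 in Cal27 ErlR cells. The resistant libraries lay below both parental ones, with -2.37, SE 0.42, adjusted p = 0.00204 in AfaR and -1.82, SE 0.41, adjusted p = 0.0103 in ErlR, and the ErlR replicates differed by more than 2-fold from each other. In FaDu the levels were 92.6 and 118 CPM in FaDu parental, 108 and 72.9 in FaDu AfaR and 64.9 and 37.7 in FaDu ErlR cells, and DDIT4 did not pass. NDRG1, a stress-induced gene on chromosome 8, stood at 43.1 and 133 CPM in Cal27 parental, 30.6 and 25.5 in Cal27 AfaR and 41.2 and 13.6 in Cal27 ErlR cells. The lower parental library was close to the higher ErlR library. The calls (-1.62, adjusted p = 0.0388 in AfaR and -1.71, adjusted p = 0.0415 in ErlR) were lost without parental replicate 2, the AfaR call also without either AfaR library and the ErlR call without ErlR replicate 2. Without parental replicate 2 the changes were -0.59, adjusted p = 0.312 and -0.66, adjusted p = 0.33.

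Other targets separated the Cal27 models. STC2, a secreted glycoprotein, rose slightly in AfaR (0.69, adjusted p = 0.0218) and fell in ErlR (-1.88, adjusted p = 0.000404), with 195 and 129.6 CPM in Cal27 parental, 235 and 281 in Cal27 AfaR and 50.02 and 39.5 in Cal27 ErlR cells. The mitophagy receptor BNIP3L fell in ErlR only (-1.22, adjusted p = 0.0102, against 0.37, adjusted p = 0.294 in AfaR), and AfaR was higher than ErlR when the models were tested against each other (1.59, adjusted p = 0.00121). Its levels were 33.0 and 62.8 CPM in Cal27 parental, 67.6 and 54.1 in Cal27 AfaR and 22.3 and 19.4 in Cal27 ErlR cells. Without parental replicate 2 the fall in ErlR no longer passed (-0.67, adjusted p = 0.0508), and the change in AfaR became a rise that passed (0.91, adjusted p = 0.00725). P4HA2, a collagen prolyl hydroxylase subunit, rose in AfaR (0.93, adjusted p = 0.00442) and fell in ErlR (-0.70, adjusted p = 0.0233), at 87.8 and 98.7 CPM in Cal27 parental, 175 and 174 in Cal27 AfaR and 71.2 and 45.2 in Cal27 ErlR cells, and the fall in ErlR did not pass without parental replicate 2. INSIG2, which holds back the sterol sensor SCAP, fell in ErlR (-0.84, adjusted p = 0.00375) at 29.6 and 27.3 CPM in Cal27 parental, 30.5 and 28.4 in Cal27 AfaR and 16.5 and 15.9 in Cal27 ErlR cells.

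In FaDu the hypoxia targets among the members that passed were all higher in resistant cells. They were 4 of 15 tested in AfaR (10.4% of all genes rose) and 1 in ErlR (2.58%). The glycolysis genes that passed were all lower, 4 of 21 in AfaR (7.49% of all genes fell) and 2 in ErlR (1.6%). Of the 29 further hypoxia targets described below, 5 rose and 2 fell in FaDu AfaR. ADM, the vasodilator peptide adrenomedullin, stood at 8.01 and 11.7 CPM in FaDu parental, 20.5 and 24.7 in FaDu AfaR and 12.5 and 8.28 in FaDu ErlR cells and rose in AfaR (1.18, SE 0.25, adjusted p = 0.0149). Both AfaR libraries lay above the other FaDu libraries. P4HA2 rose in both models, at 18.8 and 17.6 CPM in FaDu parental, 34.4 and 32.9 in FaDu AfaR and 25.4 and 30.4 in FaDu ErlR cells, by 0.87, SE 0.14, adjusted p = 0.00713 in AfaR and 0.63, SE 0.14, adjusted p = 0.0441 in ErlR. BNIP3L rose in AfaR, at 18.5 and 18.2 CPM in FaDu parental, 27.0 and 34.6 in FaDu AfaR and 17.5 and 18.0 in FaDu ErlR cells (0.74, SE 0.15, adjusted p = 0.0154). NDRG1 stood at 43.9 and 36.9 CPM in FaDu parental, 84.3 and 104 in FaDu AfaR and 47.4 and 158 in FaDu ErlR cells. Its AfaR libraries lay above both parental ones, but the changes did not pass (1.20, adjusted p = 0.077 in AfaR and 1.36, adjusted p = 0.106 in ErlR), and the ErlR value came from 1 of the 2 replicates. Of the 9 calls in FaDu AfaR only that of EPAS1 held when each library was left out in turn, and between 1 and 8 calls were lost with each library. In FaDu ErlR the calls of P4HA2, ALDOC and SLC16A3 were lost without FaDu parental replicate 1. That of P4HA2 was also lost without FaDu parental replicate 2 or FaDu ErlR replicate 2.

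BNIP3, P4HA1, KDM3A, ANKRD37, PFKFB3 and PFKFB4 passed in no resistant model, and STC2 and INSIG2 in none of FaDu. BNIP3 stood at 21.4 and 20.7 CPM in FaDu parental, 40.6 and 27.1 in FaDu AfaR and 32.6 and 22.3 in FaDu ErlR cells and at 72.5 and 116 CPM in Cal27 parental, 56.5 and 60.3 in Cal27 AfaR and 90.9 and 41.5 in Cal27 ErlR cells. The collagen hydroxylase subunit P4HA1 stood at 33.4 and 38.3 CPM in FaDu parental, 52.3 and 42.2 in FaDu AfaR and 29.1 and 30.2 in FaDu ErlR cells and at 57.4 and 108 CPM in Cal27 parental, 48.5 and 41.4 in Cal27 AfaR and 74.3 and 34.1 in Cal27 ErlR cells. In both genes the Cal27 parental and ErlR groups overlapped, with the higher ErlR library above the lower parental one. KDM3A, a histone demethylase, had log2 fold changes of -0.28 to -0.12 and ANKRD37, an ankyrin repeat protein, of -0.86 to 0.34 at no more than 1.85 CPM. The enzymes PFKFB3 and PFKFB4, which make an activator of phosphofructokinase, had log2 fold changes of -0.36 to 1.62, the highest being PFKFB4 in Cal27 AfaR (adjusted p = 0.057) at under 3 CPM. STC2 stood at 69.6 and 52.3 CPM in FaDu parental, 119.6 and 60.7 in FaDu AfaR and 53.3 and 43.0 in FaDu ErlR cells, with 1 AfaR library far above the other. INSIG2 stood at 15.9 and 15.1 CPM in FaDu parental, 17.0 and 16.4 in FaDu AfaR and 22.5 and 18.6 in FaDu ErlR cells, slightly higher in ErlR without passing (0.42, adjusted p = 0.162).

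**Figure D2:**
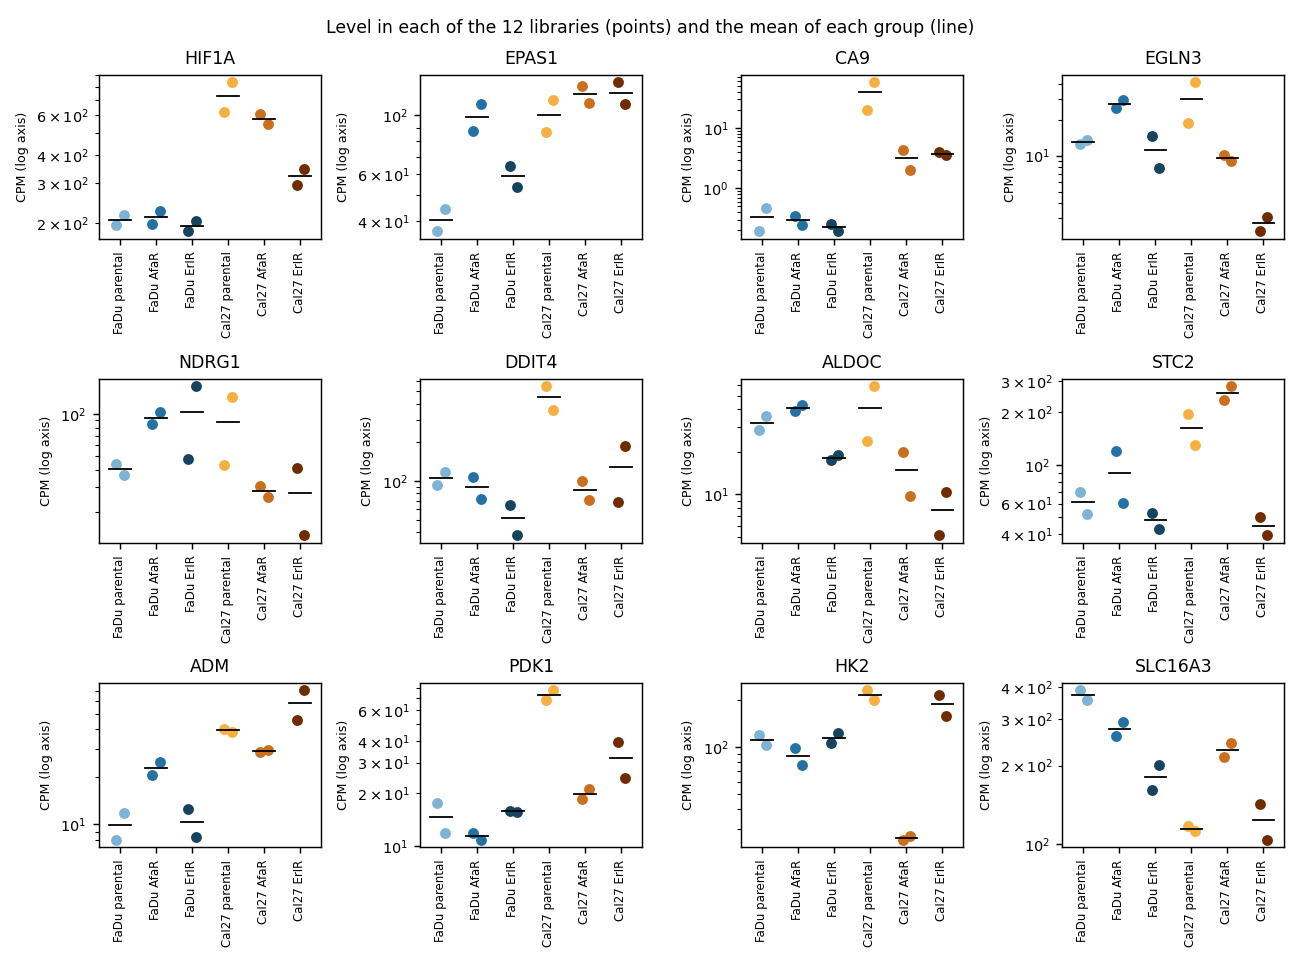
CPM on log axes for 12 genes in the 6 groups, with each library as a point and the group mean as a line. CA9, EGLN3, DDIT4 and PDK1 are lower in all 4 resistant Cal27 libraries than in the parental ones, HK2 is lower only in Cal27 AfaR, and Cal27 parental replicate 2 stands above replicate 1 for CA9, EGLN3, NDRG1 and ALDOC.

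The steps of glycolysis were changed unevenly in Cal27 AfaR, where 10 of 21 genes of glucose transport, glycolysis and lactate handling fell and 3 rose, where 18.2% of all genes fell and 19.5% rose. HK2 (ENSG00000159399, chr2:74833981-74893359, plus strand), the inducible hexokinase that traps glucose in the cell, had the smallest adjusted p of all members in this comparison. It stood at 229 and 199 CPM in Cal27 parental, 25.6 and 27.1 in Cal27 AfaR and 215 and 157 in Cal27 ErlR cells. The AfaR libraries lay far below the rest (-2.996, SE 0.17, adjusted p = 4.84e-06), and the ErlR and parental groups overlapped (-0.22, adjusted p = 0.319). HK2 passed in neither FaDu model, at 119 and 103 CPM in FaDu parental, 98.6 and 76.1 in FaDu AfaR and 106 and 122 in FaDu ErlR cells. The constitutive hexokinase HK1 also fell (-0.54, adjusted p = 0.00772). Next in the pathway, the isomerase GPI stood at 722 and 773 CPM in Cal27 parental, 365 and 400.2 in Cal27 AfaR and 766 and 695 in Cal27 ErlR cells and fell in AfaR (-0.94, adjusted p = 0.000598), where it was also below ErlR (-0.89, adjusted p = 0.000542). Of the phosphofructokinases, PFKM, the muscle form, fell in AfaR (-1.18, adjusted p = 0.00064) at 156 and 116 CPM in Cal27 parental, 63.8 and 53.5 in Cal27 AfaR and 141 and 137 in Cal27 ErlR cells, PFKL fell in both models (-0.72, adjusted p = 0.00391 and -0.74, adjusted p = 0.00527), and the platelet form PFKP, the most abundant of the 3 per kb in Cal27 parental cells, did not pass (-0.16 in AfaR). In FaDu, GPI stood at 595 and 611 CPM in FaDu parental, 520.2 and 462 in FaDu AfaR and 549.6 and 475 in FaDu ErlR cells and PFKM at 127 and 126 CPM in FaDu parental, 118 and 94.8 in FaDu AfaR and 134 and 116 in FaDu ErlR cells, and neither passed.

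Isoforms of 1 enzyme had unlike changes, which were not tested against each other. ALDOC, the brain-type aldolase, stood at 24.0 and 58.5 CPM in Cal27 parental, 19.9 and 9.75 in Cal27 AfaR and 5.12 and 10.4 in Cal27 ErlR cells and fell in both Cal27 models (-1.45, adjusted p = 0.0354 in AfaR and -2.42, adjusted p = 0.00686 in ErlR). The AfaR call was lost without parental replicate 2 (-0.66, adjusted p = 0.237) and the ErlR call was kept (-1.63, adjusted p = 0.0181). ALDOA, the main aldolase, stood at 377 CPM per kb in Cal27 parental cells against 14.1 for ALDOC, and its log2 fold changes were -0.51 in AfaR, which passed, and -0.22 in ErlR, which did not. ENO2, the neuronal enolase, fell in Cal27 ErlR (-1.81, SE 0.20, adjusted p = 0.00037) at 29.4 and 37.0 CPM in Cal27 parental, 28.3 and 32.1 in Cal27 AfaR and 8.42 and 10.7 in Cal27 ErlR cells, with both ErlR libraries below the rest. ENO1, the main enolase, did not pass in either Cal27 model (-0.15 and -0.18). ENO2 stood at 16.2 and 20.3 CPM in FaDu parental, 18.8 and 17.7 in FaDu AfaR and 15.5 and 14.0 in FaDu ErlR cells, with overlapping groups. In FaDu, ALDOC stood at 28.5 and 36.0 CPM in FaDu parental, 39.2 and 42.8 in FaDu AfaR and 17.5 and 19.0 in FaDu ErlR cells and fell in ErlR only (-0.80, SE 0.15, adjusted p = 0.0268). This call was lost whichever of the compared libraries was left out.

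The middle and lower steps, TPI1, GAPDH, PGK1, PGAM1 and ENO1, passed in neither Cal27 model, with log2 fold changes of -0.32 to 0.32. PKM, the pyruvate kinase, rose in Cal27 AfaR (0.48, adjusted p = 0.0269). Summed over the 15 glycolytic enzymes, the level was 18304 ± 94.8 CPM in Cal27 parental, 16438 ± 1718 in AfaR and 17658 ± 1083 in ErlR cells (SD, n = 2). In FaDu the sums were 21218 ± 753, 17446 ± 634 and 19774 ± 1138 CPM. The sums mostly reflect GAPDH, PKM, ENO1 and ALDOA, and the large changes of HK2, ALDOC and ENO2 barely show in them. In FaDu AfaR, GAPDH fell (-0.48, SE 0.11, adjusted p = 0.0214) and the remaining 14 enzymes did not pass.

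Glucose entry and lactate handling followed. SLC2A1, the main glucose transporter, passed in no resistant model, at -0.41 to 0.42. SLC2A3 was low, at 2.70 and 1.82 CPM in Cal27 parental, 5.11 and 4.67 in Cal27 AfaR and 2.92 and 2.43 in Cal27 ErlR cells and 3.66 and 4.65 CPM in FaDu parental, 4.71 and 4.75 in FaDu AfaR and 1.83 and 2.502 in FaDu ErlR cells, and rose in Cal27 AfaR (1.14, adjusted p = 0.0204), a call lost without parental replicate 2 (0.88, adjusted p = 0.124). SLC16A3 (ENSG00000141526, chr17:82228397-82261129, plus strand), which exports lactate, rose in Cal27 AfaR and fell in both FaDu models. In Cal27 it stood at 117 and 112 CPM in Cal27 parental, 216 and 243 in Cal27 AfaR and 142 and 104 in Cal27 ErlR cells, with both AfaR libraries above the rest (1.03, SE 0.16, adjusted p = 0.000986 in AfaR). In FaDu it stood at 388 and 358 CPM in FaDu parental, 260.4 and 293 in FaDu AfaR and 161 and 201 in FaDu ErlR cells and fell in both AfaR (-0.44, SE 0.13, adjusted p = 0.043) and ErlR (-1.02, SE 0.13, adjusted p = 0.00935), with no overlap between the groups.

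PDK1 (ENSG00000152256, chr2:172555373-172608669, plus strand) limits the oxidation of pyruvate by inhibiting pyruvate dehydrogenase. It stood at 68.2 and 77.7 CPM in Cal27 parental, 18.5 and 21.2 in Cal27 AfaR and 39.4 and 24.6 in Cal27 ErlR cells. All resistant libraries lay below both parental ones (-1.85, SE 0.21, adjusted p = 0.000189 in AfaR and -1.21, SE 0.21, adjusted p = 0.00286 in ErlR), and both calls held whichever of the compared libraries was left out. In FaDu, at 17.6 and 11.9 CPM in FaDu parental, 11.9 and 10.9 in FaDu AfaR and 15.9 and 15.6 in FaDu ErlR cells, the groups overlapped and PDK1 did not pass. LDHA, the lactate dehydrogenase subunit that favors lactate formation, fell in both AfaR models (-0.58, adjusted p = 0.0158 in FaDu and -0.68, adjusted p = 0.0106 in Cal27), at 1439 and 1410.3 CPM in FaDu parental, 1029 and 898 in FaDu AfaR and 1764 and 1480.0 in FaDu ErlR cells and 1716 and 1963 CPM in Cal27 parental, 1044 and 1206 in Cal27 AfaR and 2740.0 and 2087 in Cal27 ErlR cells. LDHB, the subunit that favors pyruvate, fell alongside it (-0.52, adjusted p = 0.0145 in FaDu and -0.49, adjusted p = 0.0293 in Cal27), at 1816 and 1924 CPM in FaDu parental, 1361 and 1276 in FaDu AfaR and 1961 and 1762 in FaDu ErlR cells and 924 and 807 CPM in Cal27 parental, 535 and 675 in Cal27 AfaR and 929.7 and 963 in Cal27 ErlR cells. For both subunits and in both lines, the AfaR libraries lay below all others of the line. When libraries were scaled on spike-in RNA instead, the all-gene median moved to 0.18 in FaDu AfaR and 0.49 in FaDu ErlR, and relative to parental cells the 4 falls in FaDu AfaR no longer passed (LDHA -0.40, LDHB -0.34, GAPDH -0.30, SLC16A3 -0.26), and 9 members were higher. In FaDu ErlR that scaling left SLC16A3 lower (-0.55, adjusted p = 0.0119), ended the call of ALDOC (-0.32, adjusted p = 0.176) and gave 19 members higher.

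**Figure D3:**
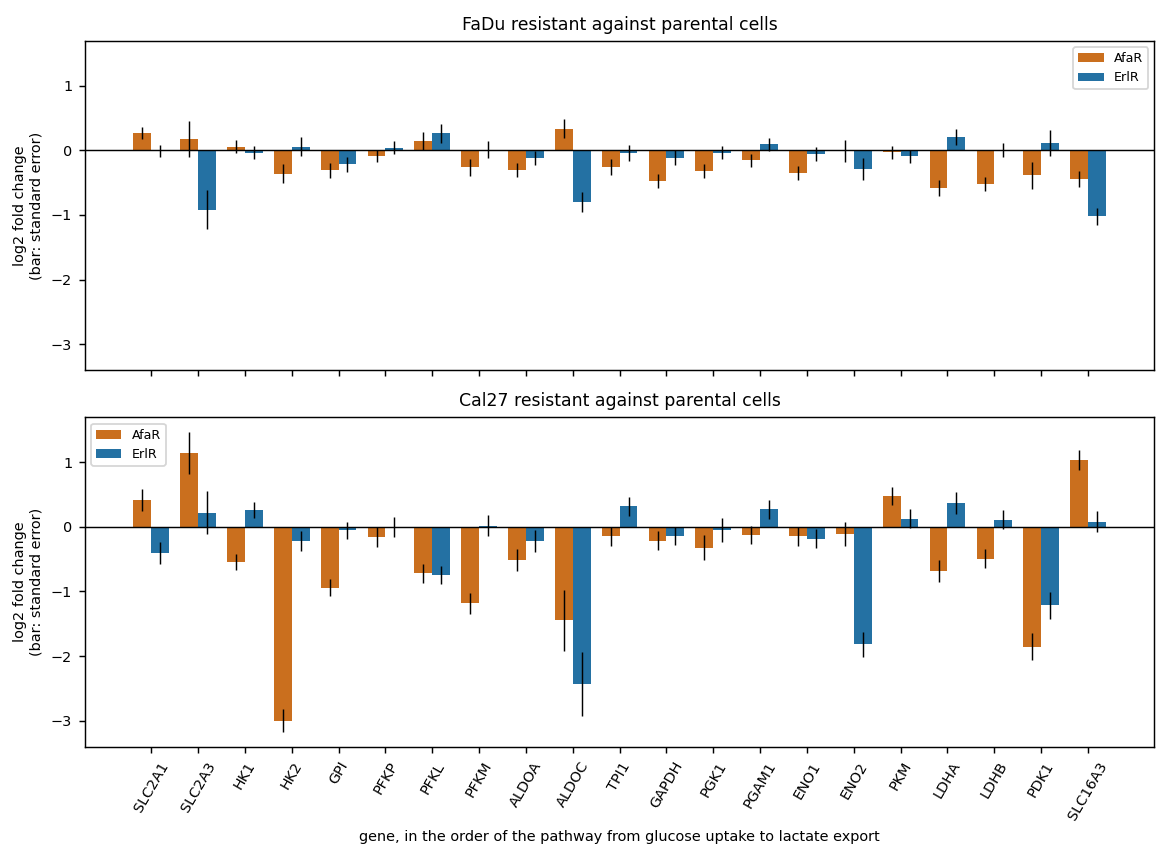
Log2 fold change (bars, with SE) of the 21 genes from glucose uptake to lactate export in FaDu (top) and Cal27 (bottom), with AfaR in orange and ErlR in blue. The Cal27 bars reach -2.996 for HK2 in AfaR and -2.42 for ALDOC in ErlR, and those of GAPDH, PGK1, PGAM1 and ENO1 stay between -0.32 and 0.27 in Cal27.

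The parental lines also differed in these genes. In Cal27 parental cells 22 of 39 members were higher than in FaDu parental cells and 6 were lower, while 28.7% of all genes were higher and 26.8% lower. The difference exceeded 2-fold for 14 members, 12 of them higher in Cal27, against 31.6% of all genes. Among the 16 hypoxia targets, 11 were higher in Cal27 and 0 were lower, with a median log2 difference of 1.20. The glycolysis genes were split, with 9 higher and 6 lower. CA9 was the farthest apart, at 19.8 and 58.5 CPM in Cal27 and 0.195 and 0.47 in FaDu (6.86, SE 0.62, adjusted p = 1.95e-06), and its FaDu level rests on few counts. HIF1A (1.82, SE 0.16, adjusted p = 1.39e-06) and EPAS1 (1.31, SE 0.18, adjusted p = 5.52e-05) were both higher in Cal27. P4HA2 (2.35), PDK1 (2.30), BNIP3 (2.16), DDIT4 (2.10), ADM (1.99), STC2 (1.41), BNIP3L (1.38), P4HA1 (1.20) and EGLN3 (1.20) made up the rest of the larger differences upward. The calls of EGLN3 and P4HA1 were lost without Cal27 parental replicate 2 and without FaDu parental replicate 1.

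ADM is an example of a clear separation, with 8.01 and 11.7 CPM in FaDu parental and 40.4 and 38.3 in Cal27 parental cells. Its levels in the resistant Cal27 cells were 28.9 and 29.4 CPM in AfaR and 46.0 and 70.4 in ErlR. The lactate exporter SLC16A3 (-1.70, SE 0.15, adjusted p = 2.1e-06) and LDHB (-1.11, SE 0.13, adjusted p = 1.53e-05) were lower in Cal27, as were GAPDH (-0.81), TPI1 (-0.69), SLC2A3 (-0.88) and SLC2A1 (-0.44). The genes around SLC16A3 on chromosome 17 were also lower in Cal27, with a median of -1.24 over 30 neighbours, 26 of them on the same side. Scaling on spike-in RNA moved the median of all genes to 0.62 in this comparison, and left 30 members higher and 2 lower, SLC16A3 and LDHB. The lines were grown in different media, so line and medium cannot be told apart here.

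**Figure D4:**
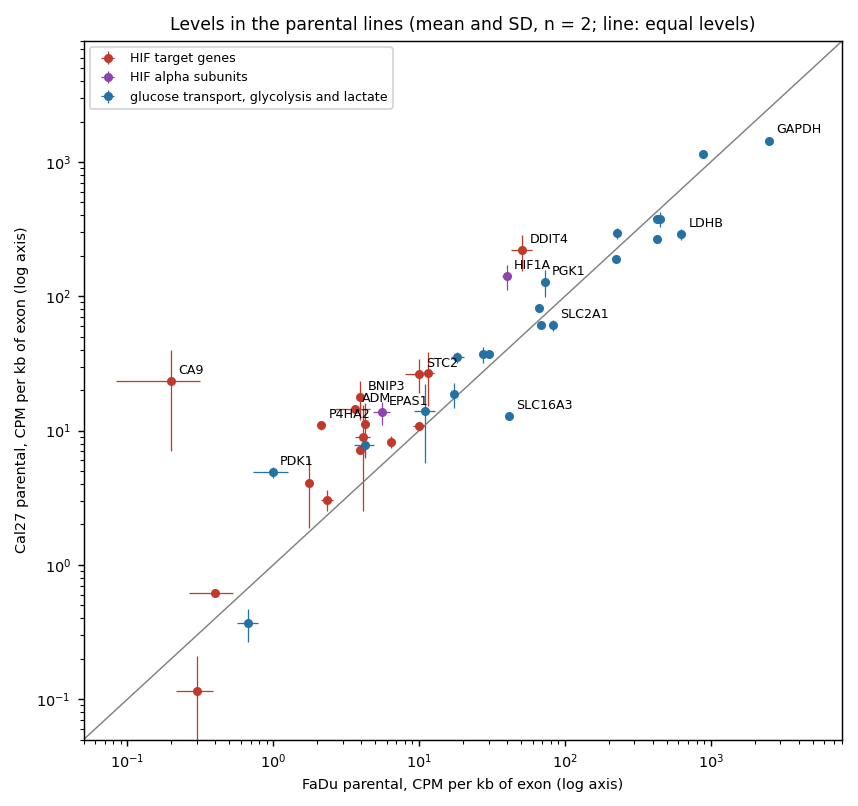
Mean CPM per kb of exon in FaDu parental (x axis) and Cal27 parental cells (y axis), both on log axes, with the SD of the 2 libraries as bars and a line at equal levels. Most hypoxia targets (red) and both HIF alpha subunits (purple) lie above the line, CA9 farthest, and SLC16A3, LDHB and GAPDH lie below it.

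Whether resistance changed these genes differently in the lines was tested as the difference of the changes, FaDu minus Cal27. For AfaR, 13 of 39 members had a more positive change in FaDu and 1 a more negative one, where 10.5% and 8% of all genes did, and 10 exceeded a log2 difference of 1, as did 12.3% of all genes. HK2 (2.65, SE 0.24, adjusted p = 1.59e-05), EGLN3 (2.67, SE 0.47, adjusted p = 0.00217), PDK1 (1.49, SE 0.31, adjusted p = 0.00553) and ADM (1.61, SE 0.34, adjusted p = 0.00604) had differences that passed whichever library was left out. SLC16A3 was the member with a more negative change in FaDu (-1.45, SE 0.21, adjusted p = 0.000622). For ErlR, 10 members had a more positive change in FaDu and 1 a more negative one, where 9.8% and 8.8% of all genes did, and 10 exceeded a log2 difference of 1, against 10.9%. EGLN3 (3.26, SE 0.51, adjusted p = 0.00158), ENO2 (1.51, SE 0.26, adjusted p = 0.00236), P4HA2 (1.32, SE 0.25, adjusted p = 0.00402), INSIG2 (1.24, SE 0.20, adjusted p = 0.0019) and HIF1A (1.11, SE 0.22, adjusted p = 0.00476) passed whichever library was left out.

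The AfaR and ErlR models of a line were also tested against each other. In Cal27, 10 members were higher in AfaR and 10 were higher in ErlR, against 26.5% and 23.2% of all genes. STC2 (2.57, SE 0.21, adjusted p = 2e-05), ENO2 (1.70, SE 0.20, adjusted p = 0.000128), EGLN3 (1.86), P4HA2 (1.63) and HIF1A (0.89) were higher in AfaR. HK2 (-2.77, SE 0.17, adjusted p = 4.73e-06), PFKM (-1.20), LDHA (-1.05) and ADM (-0.95) were higher in ErlR. CA9 (-0.17, SE 0.55, adjusted p = 0.823), NDRG1 (0.092, SE 0.54, adjusted p = 0.902) and PFKL (0.024, SE 0.14, adjusted p = 0.905) did not pass between the models. In FaDu, 8 members were higher in AfaR and 2 were lower, against 8.06% and 7.65% of all genes, and with scaling on spike-in RNA, which moved the all-gene median to -0.29, 2 were higher and 13 lower. ALDOC (1.13, SE 0.15, adjusted p = 0.00346) and EGLN3 (1.24, SE 0.25, adjusted p = 0.0138) were higher in AfaR, and LDHA (-0.78, SE 0.12, adjusted p = 0.00529) was lower. The EGLN3 call was lost without FaDu AfaR replicate 2, and EGLN3 stood at 14.6 and 7.83 CPM in the FaDu ErlR libraries.

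The 2 Cal27 parental libraries differed from each other in several of the genes above, and every comparison with Cal27 parental cells uses them. Of the 16 hypoxia targets, 9 were higher in replicate 2, 3 of them by more than 2-fold, the most in NDRG1 (43.1 and 133 CPM). Mitochondrial RNA made up 1.53% of counts in replicate 1 and 2.32% in replicate 2, and 1.62% and 2.26% in the Cal27 AfaR replicates, where 6 of 16 hypoxia targets were higher in replicate 2. Without parental replicate 2, calls were lost in Cal27 AfaR (NDRG1, STC2, SLC2A3, ALDOA, ALDOC, PKM and LDHA) and in Cal27 ErlR (NDRG1, BNIP3L, P4HA2 and PFKL). They were also lost in the comparison of the parental lines (EGLN1, EGLN3, P4HA1, SLC2A3, HK1, GPI, PFKL and LDHA). Such losses were not particular to this library. Calls in Cal27 AfaR were also lost without either AfaR library, and calls in Cal27 ErlR without ErlR replicate 2. Calls between the parental lines were also lost without either FaDu parental library. The calls that held whichever library of the 2 compared groups was left out were those of CA9, EGLN3, P4HA2, DDIT4, HK2, GPI, PFKL, PFKM, PDK1 and SLC16A3 in AfaR and those of HIF1A, CA9, EGLN3, DDIT4, INSIG2, STC2, ALDOC, ENO2 and PDK1 in ErlR.

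**Figure D5:**
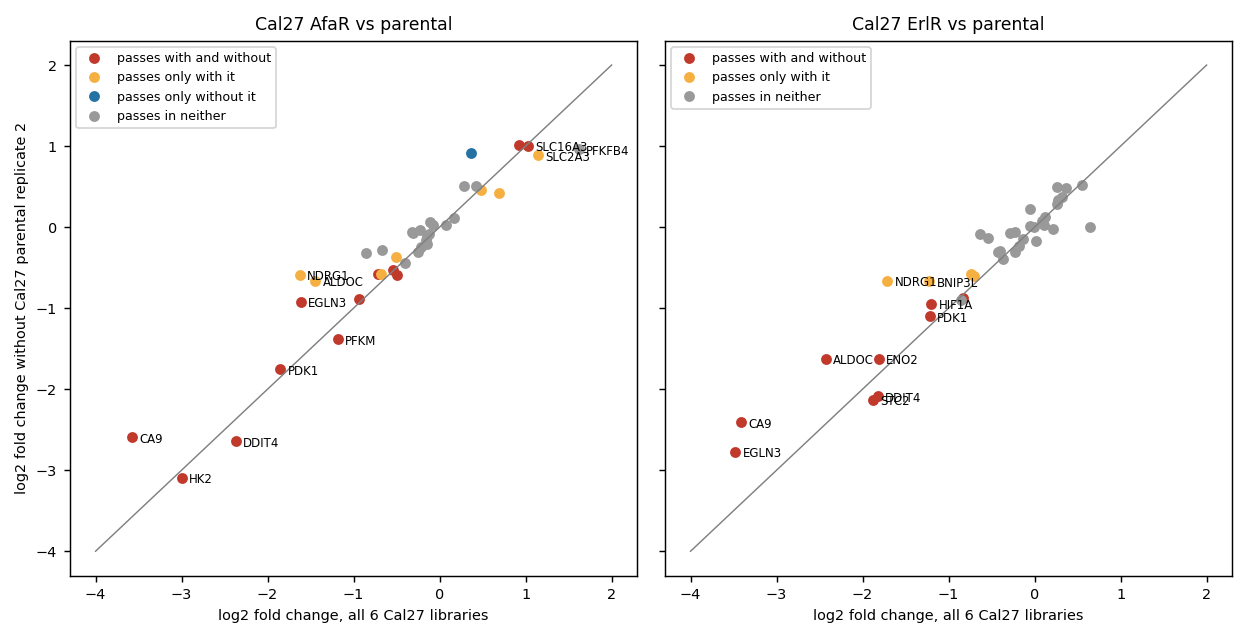
Log2 fold change with all 6 Cal27 libraries (x axis) against the same without Cal27 parental replicate 2 (y axis), for AfaR (left) and ErlR (right), with the members named where the change exceeds 1 in size and a line at equal values. CA9, EGLN3, NDRG1 and ALDOC lie above the line, closer to 0 without that library, and HK2, DDIT4 and PDK1 lie near it.

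Reads of these genes can be shared with processed copies, of which GAPDH has 65 in the annotation. Counts on the copies were at most 0.147% of the pair for GAPDH and at most 4.44%, the highest of all members, for BNIP3. The 15 tested genes on either side of each member that passed with more than a 2-fold change were compared with it, and their median stayed between -0.36 and 0.19 in Cal27 AfaR, while the 30 neighbours of CA9 had a median of 0.69 in Cal27 ErlR, opposite to CA9. Whether counting used the strand is not given in the sources used here, so reads of a member and of a gene antisense to it cannot be told apart.

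Other genes of these pathways, from lists that did not overlap the members, were counted the same way. The shares of all genes that rose and fell, beside which the counts of each list stand, were 19.5% and 18.2% in Cal27 AfaR, 12.3% and 15.3% in Cal27 ErlR, 10.4% and 7.49% in FaDu AfaR and 2.58% and 1.6% in FaDu ErlR. Of 29 further hypoxia targets, 9 rose and 7 fell in Cal27 AfaR, 4 rose and 7 fell in Cal27 ErlR, 5 rose and 2 fell in FaDu AfaR and 2 rose and 0 fell in FaDu ErlR. The rises in Cal27 ErlR were near the share of all genes. The lipase inhibitor ANGPTL4 rose in 3 models, by 2.92, adjusted p = 0.0412 in FaDu ErlR, 3.34, adjusted p = 0.023 in Cal27 AfaR and 5.42, adjusted p = 0.00335 in Cal27 ErlR. LOX, a collagen cross-linking enzyme, rose in FaDu AfaR (2.22, adjusted p = 0.0231) and Cal27 AfaR (2.19, adjusted p = 0.00244) and fell in Cal27 ErlR (-2.59, adjusted p = 0.00309). ANGPTL4 thus rose in both Cal27 models, in which CA9 and EGLN3 fell, with an SE of 0.97 in AfaR and 0.95 in ErlR. The list was mixed in direction, and others of it fell in both Cal27 models. These were AK4 (-1.34 in AfaR and -0.89 in ErlR), ERO1A (-1.63 and -0.64) and VLDLR (-1.52 and -0.71). VLDLR rose in FaDu AfaR (1.46, adjusted p = 0.0245). VEGFA rose in Cal27 ErlR (0.89, adjusted p = 0.00208) and fell in FaDu AfaR (-0.69, adjusted p = 0.0339), and it passed in neither Cal27 AfaR nor FaDu ErlR.

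Of 9 other HIF pathway regulators, 8 were tested, and 4 rose in Cal27 AfaR, 1 in Cal27 ErlR and 1 in FaDu AfaR, while 1 fell in FaDu ErlR. The fall in FaDu ErlR was that of ARNT, the stable partner of the alpha subunits (-0.59, SE 0.14, adjusted p = 0.048). ARNT passed in no other resistant model. ARNT2, a partner of the alpha subunits, rose in FaDu AfaR (2.15, adjusted p = 0.00359) and Cal27 AfaR (4.21, adjusted p = 2.5e-05). Of 28 tested genes of pyruvate oxidation and the TCA cycle, 9 fell and 4 rose in Cal27 AfaR, 3 fell and 1 rose in Cal27 ErlR, 8 fell and 1 rose in FaDu AfaR and 1 fell in FaDu ErlR. The rises in both Cal27 models and the falls in Cal27 ErlR were below the shares of all genes. Pyruvate carboxylase, PC, fell in Cal27 AfaR (-1.23, adjusted p = 0.00147) and Cal27 ErlR (-1.08, adjusted p = 0.00461). The monocarboxylate transporter SLC16A7 rose in both FaDu models (1.13, adjusted p = 0.0175 in AfaR and 1.08, adjusted p = 0.0472 in ErlR). Of the 7 pentose phosphate genes, 1 rose in Cal27 AfaR and 2 fell in Cal27 ErlR, and none passed in FaDu. Of 8 tested genes of glucose storage and gluconeogenesis, 1 rose and 3 fell in Cal27 AfaR, 0 rose and 2 fell in Cal27 ErlR, 1 rose and 1 fell in FaDu AfaR and 1 rose in FaDu ErlR. Of the other transport and isoform genes, 2 fell in Cal27 AfaR and 2 rose in Cal27 ErlR of 8 tested, and in FaDu, where 9 were tested, 1 rose and 1 fell in AfaR and 1 rose in ErlR.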

How the data were processed

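RNA was measured in 12 libraries, 2 biological replicates for each of the parental, AfaR and ErlR cells of FaDu and Cal27, grouped by the sample labels. For each library the authors deposited a file of raw read counts over Ensembl genes (GRCh38), made with Trimmomatic 0.36, STAR 2.5.2b and featureCounts of Subread 1.5.2 per the submitters' processing notes, from poly(A) libraries with ERCC spike-ins. How strand and multimapping reads were treated is not given in the sources used here. Their tables of normalized counts were not used, nor any fold changes or p-values in them, and 0 columns were left without a sample. Coordinates and exon lengths are those of the count files.

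The quasi-likelihood test of edgeR 4.0.16 (R 4.3.3) was applied to the counts (TMM, filterByExpr, glmQLFit and glmQLFTest), with Benjamini-Hochberg adjustment over all genes tested. One fit per line used 6 libraries (15092 genes in FaDu, 15269 in Cal27, 3 residual degrees of freedom), and 1 fit over 12 libraries (16240 genes, 6 degrees of freedom) compared the parental lines and the effects between lines. Two-sided p-values set a difference against the spread between replicates, estimated over all groups of the fit. They do not cover the spread between separate selections of resistant cells. The procedure was tested on simulated data. Levels are TMM CPM, compared between genes per kb of exon. Depth was 16334937 to 23399259 counts per library.

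The members and gene lists were chosen with earlier results of these data known, so lists were described by counts beside all genes and were not tested. Values in every library are given for HIF1A and EPAS1, for members beyond 2-fold in a comparison with or between parental cells, and for the 3 members with the smallest adjusted p in each comparison. Genes of the other lists (other HIF pathway regulators, further hypoxia targets, pentose phosphate, pyruvate oxidation and TCA cycle, glucose storage and gluconeogenesis, other transporters and isoforms) are named when they passed beyond 2-fold in at least 2 of the 4 comparisons, at most 3 per list. Alternatives were DESeq2 1.42.0, other scalings, filters and sets of libraries, a replicate block and leaving out each library. ARNT, EGLN2, VEGFA and the further hypoxia targets that fell in both Cal27 models are named as well. A further gene of the added lists is counted but not reported by name here.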

Additional observations from a re-analysis of the deposited data

Results flagged for a closer look

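The following members had a change under resistance that differed between the lines by more than 1 on the log2 scale in edgeR's test of the difference itself, over all 12 libraries, given as FaDu minus Cal27. With the 2 replicates of each group no single sample could be tested as an outlier. For AfaR the differences were 3.41 for CA9, 2.84 for NDRG1, 2.67 for EGLN3, 2.65 for HK2, 2.16 for DDIT4, 1.80 for ALDOC, 1.61 for ADM, 1.49 for PDK1 and 1.01 for EPAS1. SLC16A3 differed the other way, at -1.45, since it fell in FaDu AfaR and rose in Cal27 AfaR. The adjusted p-values ran from 1.59e-05 (HK2) to 0.0427 (CA9). The value of CA9 rests on 3 to 9 counts in each FaDu library, and its call, like those of NDRG1 and ALDOC, was lost in 6 of the 8 fits that each left out 1 library. Those of DDIT4 and EPAS1 were lost in 4 of them.

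For ErlR the differences were 3.26 for EGLN3, 3.06 for NDRG1, 1.54 for STC2, 1.51 for ENO2, 1.32 for P4HA2, 1.31 for PDK1, 1.24 for INSIG2, 1.18 for BNIP3L and 1.11 for HIF1A. SLC16A3 again differed the other way, at -1.12. The adjusted p-values ran from 0.00158 (EGLN3) to 0.0335 (BNIP3L). In FaDu ErlR, NDRG1 stood at 47.4 and 158 CPM in the 2 libraries, and its call was lost in 5 of the 8 fits that each left out 1 library, the second of these included. The call of BNIP3L was lost in 7 of them, that of STC2 in 4 and that of PDK1 in 1. Scaling on spike-in RNA moved the all-gene median of the AfaR difference to 0.18 and of the ErlR difference to 0.49.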

How the results depend on the processing

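Counts of members that passed are given as higher and lower. DESeq2 gave 2 higher in FaDu ErlR, 7 lower in FaDu AfaR, 1 higher in Cal27 ErlR, 4 lower for FaDu AfaR against ErlR and 2 lower for the AfaR difference between lines. The AfaR difference also had 2 lower with RLE size factors, with upper-quartile scaling, with at least 10 counts in every library and with no filter. With no filter there were 8 higher in FaDu AfaR, 3 higher in FaDu ErlR, 2 higher in Cal27 ErlR and 4 lower for FaDu AfaR against ErlR. Scaling on ERCC spike-ins gave 9 higher and 0 lower in FaDu AfaR, 19 higher and 1 lower in FaDu ErlR, 1 higher in Cal27 ErlR, 2 higher and 13 lower for FaDu AfaR against ErlR, 2 lower between parental lines and 16 higher for the ErlR difference. It turned HIF1A (0.41), SLC2A1 (0.48), HK1 (0.45), TPI1 (0.46), PGK1 (0.46) and ENO1 (0.43) positive in FaDu ErlR, where the all-gene median moved to 0.49. Between the parental lines, where that median moved to 0.62, it turned SLC2A1 (0.14), PFKP (0.42) and PKM (0.40) positive. The cause of the moved medians was not tested. The fit of 4 libraries gave 0 higher in FaDu ErlR, and that of 12 libraries gave 0 higher and 1 lower there and 5 higher for FaDu AfaR against ErlR. Requiring a log2 fold change over 1 left 3 higher and 0 lower in FaDu AfaR, 0 and 1 in FaDu ErlR, 2 and 8 in Cal27 AfaR, 12 and 2 between parental lines, 4 and 0 for FaDu AfaR against ErlR and 5 and 3 for Cal27 AfaR against ErlR. A window of 150 bases left 15 promoters with a core. Where no value shows the reason, the cause was not tested.

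Deviations of same-numbered libraries correlated by -0.15 to 0.09 over genes, and the main fits did not pair them. Whether same-numbered libraries were paired is not known from the labels, which only number the replicates. The mitochondrial share of counts was higher in replicate 2 than in replicate 1 of every group. With a replicate block there were 0 higher in FaDu ErlR, 4 higher and 11 lower in Cal27 AfaR, and no count apart from FaDu ErlR moved by more than 1.5 times. Crossing the numbers of Cal27 parental and AfaR, chosen after seeing the data, gave 7 higher and 17 lower.

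Leaving out 1 library at a time gave 1 to 5 higher and 0 to 6 lower in FaDu AfaR, 0 to 2 and 0 to 2 in FaDu ErlR, 2 to 5 and 8 to 15 in Cal27 AfaR, 0 to 1 and 9 to 15 in Cal27 ErlR, 14 to 21 and 4 to 6 between parental lines, 5 to 14 and 1 to 2 for the AfaR difference, 6 to 11 and 1 to 1 for the ErlR difference, 3 to 6 and 2 to 4 for FaDu AfaR against ErlR, and 9 to 11 and 6 to 10 for Cal27 AfaR against ErlR. NDRG1 in FaDu AfaR against ErlR ranged from -0.78 to 0.95, the latter without FaDu ErlR replicate 2. Each group had 2 libraries, which left 3 residual degrees of freedom within a line, and depth limits members on few counts, such as CA9 in FaDu and PFKFB4 and ANKRD37 in both lines.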
